A study of Mus with 8 samples.

Results

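The genes described here are 36 genes known from endothelial cells, read in cultures of smooth muscle cells from the mouse aorta. They were chosen by name, from knowledge of endothelium, and their probes were found by gene symbol. Where a gene had several probes that passed the detection filter, the brightest gave its level. All 36 had a probe on the array, among 20289 genes with a probe, and 22 of them were bright enough to be tested, among 11859 genes tested in all. The 36 genes had 57 probes between them, and 15 genes had several.

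The study measured total RNA of 8 cultures on Illumina bead arrays, 1 array per culture, and compared smooth muscle cells with and without a deletion of Tie2, the angiopoietin receptor encoded by Tek. The 4 KO cultures came from mice with the floxed Tie2 gene and a Cre recombinase transgene under the SM22α promoter, which is active in smooth muscle. The 4 WT cultures were from animals without the transgene, and the floxed gene was present in both groups. All cultures were of passage 1, grown in DMEM with FCS, from the aorta of male mice of the C57 black 6 strain aged 8 weeks. A Cre under this promoter need not act in every cell type that a culture holds. Whether cultures were from separate animals is not in the labels, so the tests below measure the spread between these cultures only.

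Endothelial cells line the inner face of the aorta, next to the smooth muscle layer, and can be carried over when smooth muscle is cultured. They seal their contacts with VE-cadherin and claudin-5, keep a set of transcription factors of the Ets and SoxF families, store von Willebrand factor and P-selectin in granules, and make nitric oxide. Several genes in common use as endothelial markers are also made by macrophages, platelets, blood stem cells or mesenchymal cells, so that no single gene stands for the cell type.

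The arrays were alike in depth of signal. The median intensity lay between 94.7 and 128.1, and the share of probes detected between 44.9% and 49.5%. A typical probe had 38 to 40 beads on an array. Slide 1 held KO replicates 1 and 2 and all 4 WT arrays, and slide 2 held KO replicates 3 and 4. Tek, the gene targeted in the KO mice, had log2 intensities of 4.78, 5.56, 5.36 and 5.26 in KO replicates 1 to 4, against 6.44, 7.42, 6.66 and 6.35 in WT replicates 1 to 4. Every KO culture lay below every WT culture, and the log2 fold change was -1.48 ± 0.27 (SE), with a limma adjusted p of 0.81. Of 12 contractile smooth muscle markers 11 were tested, and 7 of these stood clearly above background in every culture, among them Acta2, Tagln and Lmod1. By their best probe, Myh11 did so in 7 cultures, Myocd in 6, Itga8 in 2 and Cnn1 in 1. Synpo2, which was not tested, did so in 0. Macrophage and leukocyte markers were also present, with 12 of 15 clearly above background in every culture.

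Of the 36 endothelial genes 11 gave a clear signal in every smooth muscle culture, and several genes in common use as endothelial markers gave little or none. Detection was read in 2 ways. A gene was called detected in a culture where its probe had a deposited detection p-value below 0.05, and clearly above background where its intensity also passed the 95th percentile of 937 unannotated, control-like probes on the same array. Of the 36 genes, 33 were detected in at least 1 culture, 22 in at least 4 and 14 in all 8. The control-like probes reached the same marks in 51.2%, 9.18% and 1.60% of cases. Detection in 1 or a few cultures was thus also common for probes with no annotated gene. The annotation does not name these probes as negative controls, and whether they lack a target is not known. Of the probes of these endothelial genes 52.6% were detected in at least 4 cultures, against 51.4% of all probes with a gene. In all 8 cultures 28.1% of them were detected, against 38.8% of all probes with a gene.

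Clearly above background in all 8 cultures were 11 genes, a mark that 0.213% of the control-like probes reached. Counted by probe, 22.8% of the probes of the endothelial genes reached it, against 33.7% of all probes with a gene. Cdh5 (VE-cadherin), the matrix protein Mmrn2 and its receptor Cd93 were the junction and adhesion genes among them. Emcn (endomucin), Esm1 (endocan) and Plvap, the protein of the diaphragms that span endothelial pores, were the surface and permeability genes. Eng (endoglin), the secreted factor Egfl7 and the receptor Notch4 came from the signalling genes, Lmo2 from the transcription factors, and Selp (P-selectin) from the genes of haemostasis. Esam and the BMP receptor Acvrl1 were clearly above background in 7 of 8 cultures. The other 9 tested genes passed that mark in 0 to 3 cultures, and their levels lay close to background. These were Pecam1, Cldn5, Robo4, Sox7, Sox17, Sox18, Nos3, Cd34 and Calcrl.

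**Figure D1:**
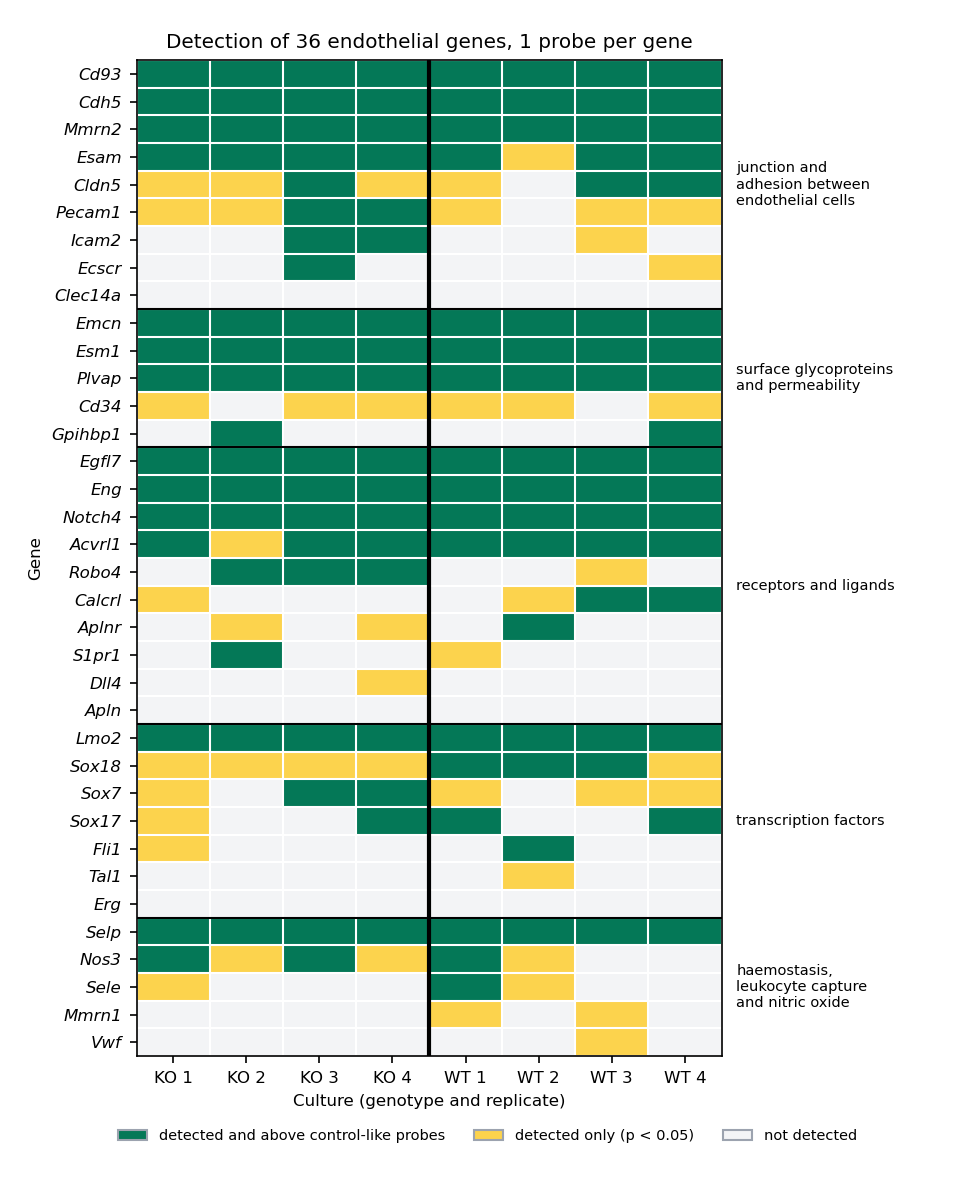
Detection of each of the 36 endothelial genes (rows, grouped by role) in each culture (columns, 4 KO then 4 WT), read from 1 probe per gene. Green marks a detected probe that also passed the 95th percentile of the control-like probes, yellow a detection p-value below 0.05 alone, and grey no detection. 11 genes are green in all 8 cultures, and Erg, Clec14a and Apln are grey in all 8.

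The 14 genes that were not tested include some of the most widely used endothelial markers. Erg, the Ets factor that maintains endothelial identity, the adhesion receptor Clec14a and the peptide Apln were detected in 0 of 8 cultures. Vwf (von Willebrand factor) had 2 probes, of which 1 was detected in WT replicate 2 alone and the other in WT replicate 3 alone. The blood and endothelial factor Tal1 was detected in WT replicate 2 alone. The Notch ligand Dll4 was detected in KO replicate 4 alone, with 1 of its 2 probes. Fli1, an Ets factor shared with blood cells, was detected in KO replicate 1 and WT replicate 2. Mmrn1, a protein of platelet and endothelial granules, was detected in WT replicates 1 and 3 with 1 probe and in WT replicate 4 with the other. S1pr1, the sphingosine 1-phosphate receptor, was detected in KO replicate 2 and WT replicate 1. Ecscr, an endothelial surface protein, was detected in KO replicate 3 and WT replicate 4. Gpihbp1, which carries lipoprotein lipase across capillary walls, was detected in KO replicate 2 and WT replicate 4 with both of its probes. Icam2, a ligand of leukocyte integrins, was detected in KO replicates 3 and 4 and WT replicate 3. Sele (E-selectin), which captures leukocytes on inflamed endothelium, was detected in KO replicate 1 and WT replicates 1 and 2. Aplnr, the apelin receptor, was detected in KO replicates 2 and 4 and WT replicate 2. No 2 of these 11 sparsely detected genes can be ranked by level, since different probes are not on 1 scale. Of 19 genes taken as defining endothelium, 13 were tested and 5 were clearly above background in all 8 cultures, so the signal was clear for part of the defining set only.

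KO and WT cultures were then compared in the 22 tested genes, on log2 intensities that were corrected for background and normalized between arrays. None of the 22 genes passed the test between KO and WT. The count past an adjusted p of 0.05 was 0 of 22 with limma, where 0.0% of all 11859 genes passed. The count with an unadjusted p under 0.05 was also 0 of 22, where 5.74% of all genes had one, and KO and WT values lay apart without overlap in 0 of 22 genes, where 3.28% of all genes had them apart. Adjusted p-values of the 22 lay between 0.828 and 0.965. The smallest exact permutation p of a gene was 0.0857, where 4 cultures against 4 can reach 0.0286 over 70 assignments. All fold changes below are KO over WT on the log2 scale with a standard error from limma, over 4 cultures a group. In bulk RNA, fewer cells of a type and less RNA per cell cannot be told apart.

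Among the junction and adhesion genes 6 of 9 were tested, 3 with a positive and 3 with a negative fold change. Cdh5, the cadherin that holds endothelial cells together, had levels of 5.55, 6.78, 6.34 and 6.57 in KO replicates 1 to 4, against 5.56, 5.95, 6.43 and 6.40 in WT replicates 1 to 4. Replicate 1 was lowest in each group, the groups overlapped, and the log2 fold change was 0.23 ± 0.31. Pecam1 (CD31), an adhesion protein of endothelial contacts, platelets and leukocytes, had levels of 4.86, 5.17, 5.40 and 5.99 in KO, against 4.87, 4.40, 5.32 and 4.74 in WT. KO replicate 4 was highest and WT replicate 2 lowest, and the log2 fold change was 0.52 ± 0.28, or 0.17 by the authors' normalized values. Esam, an adhesion molecule of tight junctions, had levels of 6.63, 7.05, 8.65 and 6.98 in KO, against 7.12, 5.19, 7.85 and 7.04 in WT. Replicate 3 was highest in each group. The log2 fold change was 0.53 ± 0.61. It was -0.0093 without WT replicate 2, 0.085 without KO replicate 3 and 0.038 on slide 1 alone.

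Cldn5 (claudin-5), the sealing protein of endothelial tight junctions, had levels of 5.28, 5.07, 5.92 and 4.90 in KO, against 5.02, 4.86, 7.08 and 5.31 in WT. WT replicate 3 stood above the rest, and the log2 fold change was -0.28 ± 0.48 with it and 0.23 without it. Mmrn2, a matrix protein that binds Cd93, had levels of 5.49, 6.11, 6.53 and 5.97 in KO, against 6.27, 5.66, 6.57 and 5.98 in WT. The groups covered nearly the same range, and the log2 fold change was -0.10 ± 0.27. Cd93, a lectin-like receptor of endothelial and myeloid cells, had levels of 7.96, 8.25, 7.33 and 6.82 in KO, against 8.27, 10.24, 7.61 and 7.33 in WT. WT replicate 2 was higher than any other culture, and the log2 fold change was -0.78 ± 0.62, and -0.15 without that culture.

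Among the surface glycoproteins and permeability genes 4 of 5 were tested, 3 with a positive fold change. Emcn (endomucin), a sialoglycoprotein of venous and capillary endothelium, had levels of 10.06, 10.80, 10.62 and 10.36 in KO, against 9.62, 8.63, 10.36 and 10.22 in WT. KO replicate 1 lay below WT replicates 3 and 4, so the groups overlapped. The log2 fold change was 0.75 ± 0.37 (exact permutation p = 0.143) and 0.70 by the authors' normalized values, but 0.39 without WT replicate 2. Esm1 (endocan), a secreted proteoglycan of sprouting endothelium, had levels of 9.61, 9.29, 9.61 and 8.61 in KO, against 9.89, 6.80, 8.69 and 8.68 in WT. The highest and the lowest culture were both WT, and the log2 fold change of 0.76 ± 0.58 was 0.19 without WT replicate 2. Plvap had levels of 6.85, 7.71, 7.35 and 6.93 in KO, against 6.78, 6.81, 7.48 and 7.08 in WT. KO and WT covered nearly the same range, and the log2 fold change was 0.17 ± 0.24. Cd34, a sialomucin of endothelium, blood stem cells and fibroblasts, had levels of 4.86, 4.37, 5.14 and 4.97 in KO, against 5.27, 5.24, 4.42 and 5.14 in WT. Its probe passed the control-like probes in 0 cultures, and the log2 fold change was -0.18 ± 0.25.

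Among the receptors and ligands 6 of 10 were tested, 4 with a positive and 2 with a negative fold change. Eng (endoglin), a co-receptor of BMP and TGF-β ligands that mesenchymal cells also make, had levels of 10.24, 9.83, 10.53 and 10.50 in KO, against 10.33, 9.78, 10.01 and 10.19 in WT. Replicate 2 was lowest in each group and the log2 fold change was 0.20 ± 0.21, but it was -0.041 on slide 1 alone, where KO replicates 3 and 4 are missing. Acvrl1 (ALK1), the BMP receptor that works with endoglin, had levels of 7.43, 5.52, 6.89 and 6.28 in KO, against 7.76, 7.33, 6.61 and 6.91 in WT. KO replicate 2 was lowest, and the log2 fold change was -0.63 ± 0.42, and -0.29 without that culture. Egfl7, a factor that endothelial cells secrete into their matrix, had levels of 7.92, 8.55, 8.69 and 8.66 in KO, against 8.21, 8.06, 8.60 and 8.05 in WT. KO replicate 1 was the lowest culture and KO replicates 3 and 4 the highest. The log2 fold change was 0.23 ± 0.22, but 0.0074 on slide 1 alone.

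Robo4, a receptor that stabilises the vessel wall, had levels of 4.25, 5.98, 5.90 and 5.59 in KO, against 4.18, 4.19, 5.39 and 4.36 in WT. KO replicates 2, 3 and 4 lay above every WT culture and KO replicate 1 did not. Its other probes, given below, did not have this pattern. The probe used was detected in 3 KO cultures and 1 WT culture, so it met the filter largely through the group where it was high. The log2 fold change was 0.89 ± 0.43 (exact permutation p = 0.0857), and it was 0.35 by the authors' normalized values and 0.04 with the control-like probes taken as the background. Calcrl, the receptor chain for adrenomedullin, had levels of 5.25, 4.28, 4.66 and 4.24 in KO, against 4.37, 5.30, 5.43 and 5.27 in WT. KO replicate 1 and WT replicate 1 each lay apart from their group, on opposite sides, and the log2 fold change was -0.49 ± 0.30. Notch4, a Notch receptor of endothelium, had levels of 7.75, 7.91, 7.92 and 7.47 in KO, against 8.14, 6.84, 7.86 and 7.82 in WT. The KO values lay within the range of the WT values, and the log2 fold change was 0.10 ± 0.28.

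Among the transcription factors 4 of 7 were tested, 1 with a positive and 3 with a negative fold change. Sox7, Sox17 and Sox18 make up the SoxF family, which acts in vessel growth and arterial identity. Sox7 had levels of 5.00, 4.66, 5.34 and 5.58 in KO, against 4.88, 4.26, 5.02 and 4.85 in WT, with a log2 fold change of 0.39 ± 0.25. Sox17 had levels of 4.91, 4.29, 4.95 and 5.74 in KO, against 5.78, 4.19, 4.65 and 5.73 in WT, with a log2 fold change of -0.11 ± 0.43. Replicate 2 was lowest in each group for both genes. Sox18 had levels of 4.62, 5.21, 4.98 and 5.28 in KO, against 5.60, 5.58, 5.62 and 5.09 in WT. WT replicates 1 to 3 lay above all KO cultures and WT replicate 4 did not. Its log2 fold change was -0.45 ± 0.20 (exact permutation p = 0.0857) and -0.14 by the authors' normalized values. Lmo2, an adaptor of transcription complexes in blood and endothelial precursors, had levels of 8.34, 7.96, 5.94 and 7.67 in KO, against 8.71, 10.99, 6.49 and 7.21 in WT. It varied more than any other of the 22 genes, with an SD of 1.55 over the 8 cultures, and WT replicate 2 was highest. The log2 fold change was -0.87 ± 0.94, and 0.0059 without WT replicate 2.

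Among the genes of haemostasis, leukocyte capture and nitric oxide 2 of 5 were tested, both with a positive fold change. Selp (P-selectin), which endothelial cells and platelets store in granules, had levels of 6.34, 7.21, 7.67 and 6.92 in KO, against 8.38, 5.59, 5.62 and 6.48 in WT. The WT cultures spread on both sides of the KO cultures. The log2 fold change was 0.52 ± 0.60. It became 1.14 when WT replicate 1 was left out and 0.21 when WT replicate 2 was. Nos3, the endothelial nitric oxide synthase, had levels of 6.02, 5.41, 5.47 and 4.66 in KO, against 5.37, 5.25, 4.45 and 4.50 in WT. KO replicate 1 was highest, WT replicates 3 and 4 were not detected, and the log2 fold change was 0.50 ± 0.33.

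**Figure D2:**
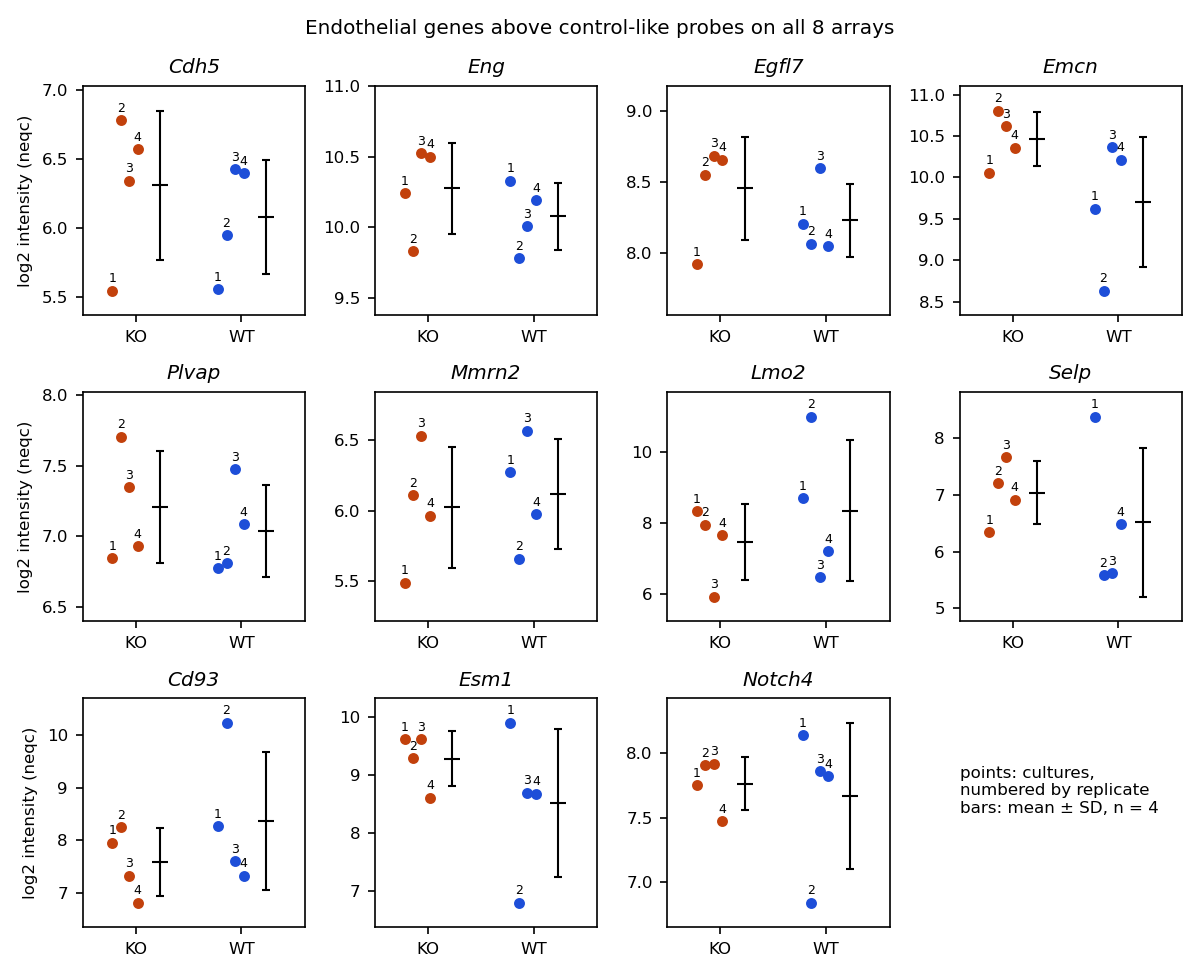
Log2 intensity after background correction and normalization (neqc) of the 11 endothelial genes clearly above background in all 8 cultures, each on its own axis. Points are cultures numbered by replicate, KO left and WT right, and bars are means ± SD (n = 4 each). KO and WT values overlap in every gene, and WT replicate 2 is the extreme culture for Lmo2 at 10.99, Cd93 at 10.24, Esm1 at 6.80 and Notch4 at 6.84.

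Taken as a list, 13 of the 22 genes had a positive and 9 a negative fold change, where 49.7% of all tested genes had a positive one. The median log2 fold change was 0.18, against -0.00 over all genes, and with slide as a block or on slide 1 alone it was 0.023. The median absolute log2 fold change was 0.47, against 0.19 over all genes, and by the authors' normalized values it was 0.17, against 0.12 over all genes. The median SD over the 8 cultures was 0.53, against 0.36 over all genes. In 19 of the 22 genes the fold change moved by over 1.5 times or turned sign when some 1 culture was left out, and in 14 of them when that culture was WT replicate 2. Emcn, Eng, Egfl7, Notch4, Lmo2, Cd93 and Esm1 had similar fold changes in the authors' value table. The dim genes Pecam1, Robo4, Sox7, Sox18, Nos3 and Calcrl had much smaller ones there, between -0.17 for Calcrl and 0.35 for Robo4. Some brighter genes also had smaller ones there, with 0.22 for Selp, 0.30 for Esam and -0.28 for Acvrl1.

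**Figure D3:**
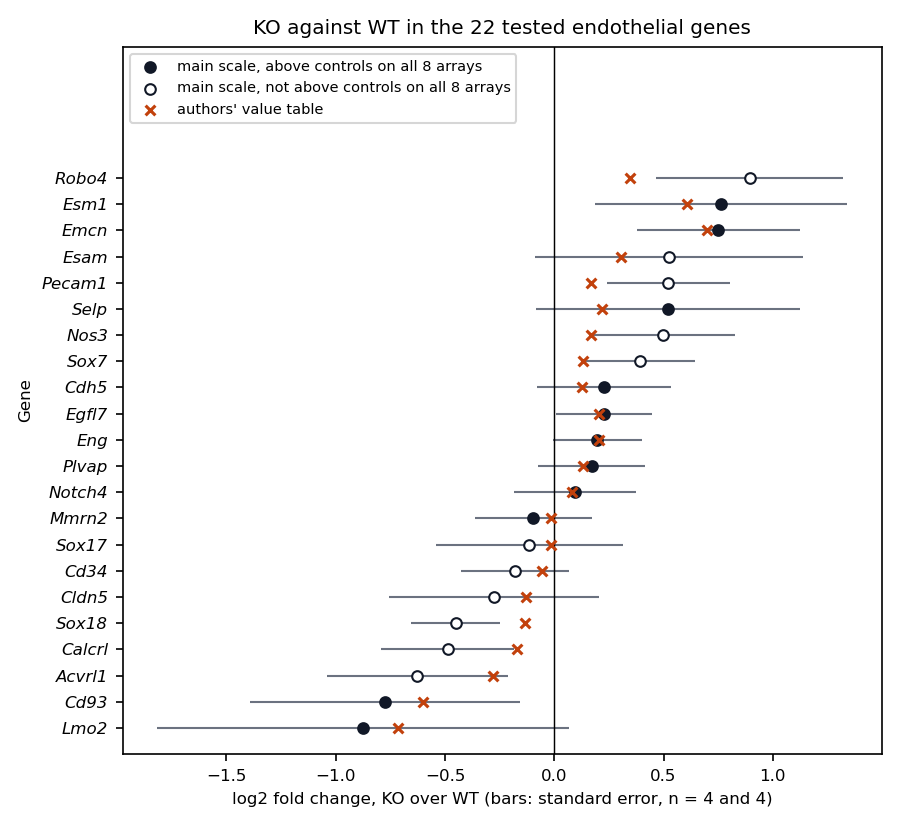
Log2 fold change, KO over WT, of the 22 tested endothelial genes (circles), with standard errors as bars (n = 4 and 4). Filled circles are genes clearly above background in all 8 cultures, open circles are the rest, and crosses are the same difference in the authors' value table. Estimates run between -0.87 for Lmo2 and 0.89 for Robo4. Crosses lie nearer 0 than open circles, and nearer 0 than some filled circles such as that of Selp.

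Of the tested genes 6 had several probes that passed the detection filter, which gives a check within the gene. Both probes of Cd93 moved together over the 8 cultures, with r = 0.918 and rho = 0.833 (exact permutation p = 0.0104 and 0.0154, adjusted p = 0.104 and 0.0726 over 10 probe pairs). Without the 2 cultures farthest out, r was 0.651. The Pecam1 probes had r = 0.769 and rho = 0.833 (exact permutation p = 0.0234 and 0.0154, adjusted p = 0.117 and 0.0726), and r was 0.347 without KO replicates 3 and 4. The Notch4 probes did not track each other, with r = -0.634 and rho = 0.02 (exact permutation p = 0.0947 and 0.977). The Egfl7 probes had r between -0.267 and 0.645 in 3 pairs, the Nos3 probes between 0.552 and 0.633 in 3 pairs, and the Sox7 probes 0.635. None of the 10 pairs passed an adjusted p of 0.05. Not every probe of a gene gave a signal. The other Cdh5 probe was detected in 3 of 8 cultures, KO replicate 3 and WT replicates 2 and 3, and was clearly above background in 2 of them. The other Notch4 probe was detected in 4 cultures, and that of Acvrl1 in KO replicate 1 alone. Of the further Robo4 probes, 1 was detected in KO replicate 2 and WT replicate 4, another in WT replicate 3 alone, and another in 0 cultures. A further Nos3 probe had levels of 5.18, 5.01, 4.96 and 4.88 in KO, against 4.33, 4.72, 4.42 and 4.46 in WT, and the groups did not overlap. Detected in 4 KO and 0 WT cultures, this probe passed the detection filter only through the group where it was high. That filter favours such a gap, which 3.28% of all tested genes had. The probe was picked out after its values were seen, and it passed the control-like probes in 0 cultures. The brighter Nos3 probe above did overlap between the groups.

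The endothelial genes as a whole shared little of their variation over the 8 cultures, and the defining genes shared more. Over the 231 pairs of the 22 genes the median Pearson r was 0.10, and 54.5% of pairs were positive, against a median of 0.0045 and 50.4% over all pairs of tested genes. Without WT replicate 2 that median was 0.0014. The pairs of genes clearly above background had a median r of 0.24, and 0.08 without WT replicate 2. The 13 tested defining genes had a median r of 0.35 over 78 pairs, with 69.2% of pairs positive, and leaving out each culture in turn gave 0.24 to 0.44. Taken as deviations from the group means, which removes any KO and WT difference, the defining genes had a median r of 0.47. Without taking deviations, the median r of the defining genes was 0.41 on slide 1 alone and 0.37 with the authors' normalized values. Over all 8 cultures, also without taking deviations, the macrophage and leukocyte markers had a median r of 0.94. The contractile smooth muscle markers had 0.59, fibroblast markers 0.02 and pericyte markers 0.08. Genes of 1 array share its hybridisation and its normalization, so these medians are descriptions and carry no test.

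Within the defining genes, Pecam1, Cdh5, Egfl7, Esam, Emcn, Robo4 and Sox7 were positively correlated in all 21 pairs, with r between 0.24 and 0.93. This set was picked out after the correlations were seen, so the positive pairs within it were fixed by the choice. The other 15 tested genes, with the remaining defining genes among them, had a median r of 0.01, with 53 of 105 pairs positive. No contrast with the picked set can be drawn, since the choice shaped both sets. Cdh5, read from its brighter probe, was set against 5 other markers. Its correlation was 0.711 with Egfl7, 0.615 with Emcn, 0.552 with Pecam1, 0.336 with Esam and 0.211 with Cldn5. The rank correlation rho with Emcn was 0.738 (exact permutation p = 0.0458, adjusted p = 0.229 over 5 relations), and that with Egfl7 was 0.548 (exact permutation p = 0.171, adjusted p = 0.328). For Pearson's r the smallest exact permutation p was 0.0658, for Egfl7 (adjusted p = 0.228), and none of the 5 relations passed. Leaving out KO replicate 1 and WT replicate 1, where Cdh5 was lowest, r with Emcn was 0.879 and r with Egfl7 was 0.587.

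**Figure D4:**
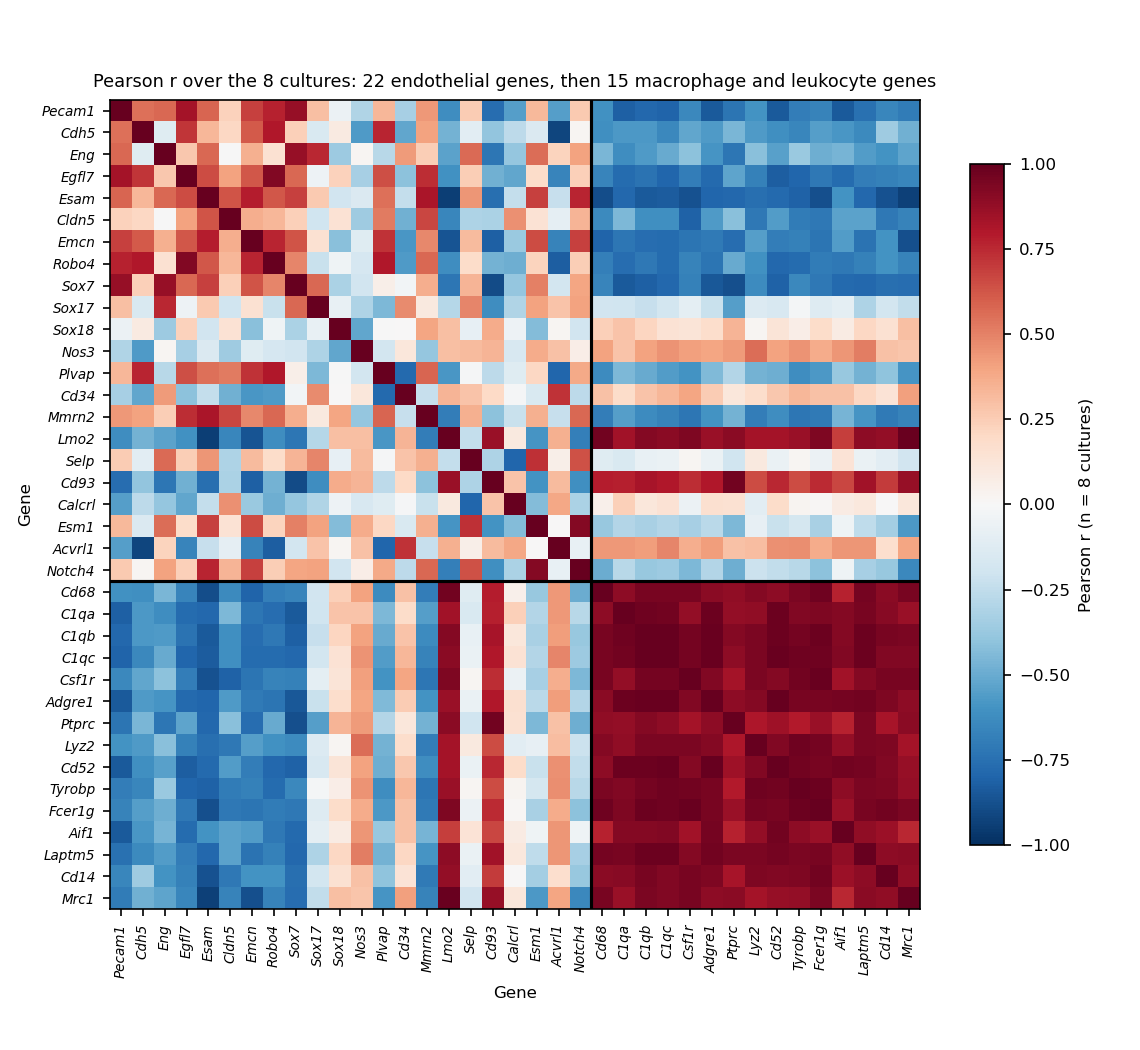
Pearson r over the 8 cultures between the 22 tested endothelial genes (upper left block) and 15 macrophage and leukocyte genes (lower right block); red is positive and blue negative. Pecam1, Cdh5, Egfl7, Esam, Emcn, Robo4 and Sox7, a set picked out after the correlations were seen, are red with each other. They are blue with the macrophage genes, while Lmo2 and Cd93 are red with the macrophage genes.

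No culture was rich in all endothelial genes. WT replicate 2 was the lowest of the 8 cultures for 10 of the 22 genes and the highest for Lmo2 and Cd93. WT replicate 1 was the highest for 6 genes. The mean deviation of the 13 defining genes from their own averages was -0.26, 0.16, 0.41 and 0.19 on the log2 scale in KO replicates 1 to 4, against -0.11, -0.59, 0.31 and -0.11 in WT replicates 1 to 4. KO replicate 3 was thus highest and WT replicate 2 lowest, and the groups overlapped. The whole set of 22 genes gave a narrower range, with -0.07, 0.03, 0.23 and -0.01 in KO, against 0.16, -0.26, 0.03 and -0.11 in WT.

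Macrophage and contractile markers also moved over the same cultures, and their mean deviations covered a wider range. The 15 macrophage and leukocyte markers, all tested, had mean deviations of 0.87, 0.50, -2.23 and -1.14 in KO, against 1.50, 2.19, -1.56 and -0.14 in WT. The highest culture was WT replicate 2 and the lowest KO replicate 3, the reverse of the defining endothelial genes. All 15 had a negative log2 fold change, where 49.7% of all tested genes had a positive one. Their median was -0.98, with 0 past an unadjusted p of 0.05 with limma. The 15 genes moved together, with a median r of 0.94, so their shared sign is not 15 separate results. KO replicates 3 and 4, the lowest KO cultures, were also the slide 2 arrays. On slide 1 the KO means lay within the WT range. By replicate number KO lay below WT each time, though the numbers are not known to pair the cultures. Adgre1, the classic macrophage surface marker, had levels of 9.29, 9.12, 5.85 and 6.35 in KO, against 10.17, 10.90, 6.70 and 8.57 in WT. Cd52 and Tyrobp, also of leukocytes, were lowest in the same 3 cultures, KO replicates 3 and 4 and WT replicate 3. The 11 tested contractile markers had mean deviations of 0.26, 0.27, 0.38 and 0.28 in KO, against -0.21, -1.03, -0.35 and 0.40 in WT. All 11 had a positive log2 fold change, where 49.7% of all tested genes had one, and their median was 0.67. Itga8, Myl9 and Mylk had an unadjusted limma p under 0.05, where 5.74% of all tested genes had one, with 0 past adjustment. Itga8 was dim, above the control-like probes in 2 of 8 cultures. The 11 genes tended to move together, with a median r of 0.59, so their shared sign is not 11 separate results. The lowest mean was that of WT replicate 2 and the highest that of WT replicate 4. Myh11, the smooth muscle myosin, had levels of 8.75, 8.03, 8.64 and 8.03 in KO, against 7.69, 5.23, 7.68 and 8.12 in WT, and was lowest in WT replicate 2. Des did not share that low culture. It was lowest in WT replicate 1, at 5.44, and had 7.64 in WT replicate 2, above KO replicate 1 at 6.38.

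Fibroblast, pericyte and platelet markers were read in the same way. Of 9 tested fibroblast markers 2 had a positive and 7 a negative fold change. Lum and Pdgfra were highest in WT replicate 2, at 10.30 and 11.03, while Clec3b was lowest there, at 4.56. Of 6 tested pericyte markers 3 were positive and 3 negative. Rgs5 was highest in KO replicate 3, at 8.51, while Kcnj8 was lowest there, at 4.93. Of 4 tested platelet markers 2 were positive and 2 negative. Gp9 was higher in KO, with an unadjusted limma p under 0.05 and non-overlapping groups, where 3.28% of all tested genes had groups apart. Its levels were dim, detected in 5 of 8 cultures and above the control-like probes in 2. Ppbp was detected in 0 of 8 cultures, and Gp1ba had no probe among those with a gene. Pf4, which macrophages can also make, was 8.36, 8.67, 4.95 and 5.59 in KO, against 8.58, 11.39, 5.93 and 7.96 in WT. Like the macrophage markers it was lowest in KO replicates 3 and 4 and WT replicate 3, whereas the platelet gene Gp1bb was highest in KO replicate 3.

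Single endothelial genes were then set against the levels of the macrophage and contractile lists, in 44 relations. Lmo2 followed the macrophage markers, with r = 0.914 and rho = 0.976 (exact permutation p = 0.00047 and 0.000397, adjusted p = 0.0207 and 0.0175). It was the 1 relation of 44 that passed. Without WT replicate 2 and KO replicate 3 its r was 0.884, on slide 1 it was 0.925, and over deviations from the group means it was 0.905. Cd93, the other gene highest in WT replicate 2, had r = 0.793 and rho = 0.786 with the macrophage markers (exact permutation p = 0.00826 and 0.0279, adjusted p = 0.121 and 0.282), and r was 0.759 without the same 2 cultures. Both genes are also known from myeloid cells or blood precursors. Esam had r = -0.847 and rho = -0.667 (exact permutation p = 0.00365 and 0.0831, adjusted p = 0.0802 and 0.332), and r was -0.603 without those 2 cultures. Of the 22 genes 15 had a negative r with the macrophage markers and 7 a positive one, and with the contractile markers 7 were negative and 15 positive. Emcn had the highest r with the contractile markers, 0.837 (rho = 0.476, exact permutation p = 0.022 and 0.243, adjusted p = 0.143 and 0.486). The part that other cell types play in the levels of Emcn, Esam, Cd93 and Lmo2 was not tested further.

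**Figure D5:**
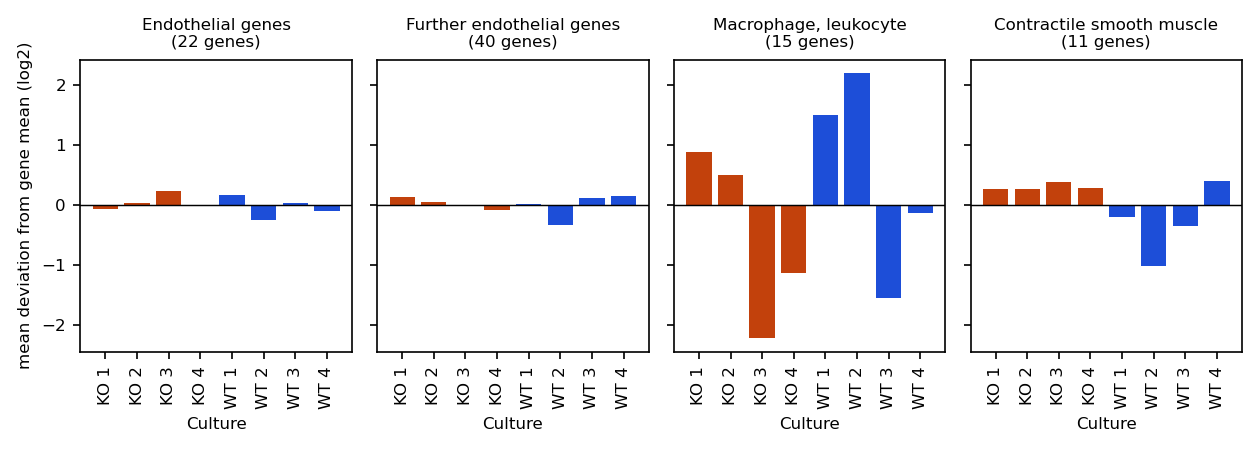
Mean deviation of the genes of 4 lists from their own averages over the 8 cultures, in log2 units, with a bar for each culture (KO left, WT right in each panel). The mean of the endothelial genes, which shared little of their variation, stays between -0.26 and 0.23. That of the macrophage markers, which moved together, runs between -2.23 in KO replicate 3 and 2.19 in WT replicate 2.

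A further 52 endothelial genes outside the 36 were read for comparison, and 40 of them were tested. 21 had a positive and 19 a negative fold change, and the medians were 0.07 for the log2 fold change and 0.05 for the pairwise r. 0 passed an adjusted p of 0.05 with limma and 5 had an unadjusted p under 0.05, where 5.74% of all genes had one. Tek, given above, was one of them. Ptprb (VE-PTP), the phosphatase that acts on Tie2 and VE-cadherin, had levels of 6.93, 6.11, 6.45 and 5.95 in KO, against 7.82, 7.16, 6.79 and 7.29 in WT, with a log2 fold change of -0.90 ± 0.28. KO replicate 1 lay above WT replicate 3, so the groups overlapped. Klf4, a transcription factor of endothelium and of modulated smooth muscle, had levels of 10.03, 9.86, 9.48 and 9.64 in KO, against 10.29, 10.13, 10.34 and 10.54 in WT, with a log2 fold change of -0.57 ± 0.17. Every KO culture lay below every WT culture for Klf4, as for Tek. Of the 40 tested genes 2 had groups apart, where 3.28% of all tested genes had them apart. Arhgef15, an exchange factor of endothelial cells, had a log2 fold change of 0.66 ± 0.23, and Slco2a1, a prostaglandin transporter, one of 0.93 ± 0.39, both with overlapping groups. Arhgef15 was dim, and none of its 5 probes passed the control-like probes in more than 3 of 8 cultures. Among the 12 that were not tested were Kdr, the main VEGF receptor, detected in 3 cultures, Tie1, the partner of Tie2, detected in 2, and Adgrf5 and Cyyr1, detected in 0.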

How the data were processed

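Total RNA of 4 KO and 4 WT cultures was hybridised to Illumina bead arrays, per the labels. The deposited scanner table gives for 46237 probes, per the file headers, a bead mean intensity with its SD between beads, the bead count and the detection p-value, with no normalization between arrays. The authors' value table holds linear intensity values, with no step named in the sources used here. Its array medians were 114, 116, 113 and 114 in KO replicates 1 to 4 and 114, 114, 115 and 114 in WT replicates 1 to 4, and ranks within arrays followed the scanner table, so its scale, centring and direction are known and its normalization method is not. The scanner table prints probe identifiers that are not those of its values (Spearman correlation with the value table -0.0083 to -0.0047), so rows were paired by their ranks on the 8 arrays. All 46237 rows paired one to one, with correlations of at least 0.9999. Symbols came from the platform annotation, which lists 1 gene for 35784 probes and none for 10453, and 3280 were updated through RefSeq (GRCm38.p6).

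Intensities were processed with neqc of limma 3.58.1 (R 4.3.3, offset 16, background from the detection p-values) to log2. Kept probes had a detection p-value below 0.05 in 4 or more cultures, and the brightest kept probe stood for a gene. KO and WT were compared by lmFit and eBayes with Benjamini-Hochberg adjustment over 11859 genes, without covariates. The script was tested on simulated data. Permutation tests were exact and two-sided. The genes, marker lists and tests were chosen with earlier results of these data known. All 36 genes were named. From the further endothelial list those with an unadjusted p under 0.05 were named. From other lists up to 3 genes detected on all 8 arrays were named by largest SD. Single absent or called genes were added after their values were seen. Clec3b, Kcnj8 and several contractile markers were named outside these rules. The control-like probes were probes with no annotated gene in a set range of probe numbers. The mark against them was also added after seeing the data. The depth of an array is its signal over background, and 4 arrays a group limit the precision. Alternatives changed the background correction, the filter, the probe rule, the slide, the pairing and the arrays used.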

Additional observations from a re-analysis of the deposited data

Results flagged for a closer look

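In 4 of 44 groups of 4 cultures, 1 culture lay far from the other cultures of its group, measured as its gap to the nearest culture over the range of the group, against Dixon's critical value. Chance gives about 1 in 20 such groups. Robo4, the vessel-stabilising receptor, had 5.39 in WT replicate 3, above the other WT cultures (gap over range 0.852). Sox18, the SoxF factor, had 5.09 in WT replicate 4, below the others (0.914). Cd34, the sialomucin, had 4.42 in WT replicate 3, below the others (0.847). Calcrl, the adrenomedullin receptor chain, had 4.37 in WT replicate 1, below the others (0.848). All 4 are WT groups of genes that passed the control-like probes in 0 to 3 of the 8 cultures.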

How the results depend on the processing

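No setting gave a gene past an adjusted p of 0.05, and the smallest adjusted p over all genes was 0.0898, without a filter on dim probes. That setting gave 1117 genes with an unadjusted p under 0.05 of 20289, against 681 of 11859. With the replicate number as a block the count was 1005. The numbers are not known to pair the cultures: same-numbered cultures deviated together with correlations of 0.318, 0.210, 0.286 and 0.06, each culture correlating best with its own number, for replicate 4 only barely. The block changed no call among the endothelial genes. The median log2 fold change of the endothelial genes was 0.010 with control-like probes as negative controls, 0.023 without the filter, and 0.023 with slide as a block and on slide 1 only, and 0.05 to 0.25 without each culture in turn. The number higher in KO was 20 of 36 without the filter, 8 of 11 among genes above the control-like probes, and 12 to 15 without each culture. The median pairwise r was 0.0040 without the filter, 0.20 with a detection p below 0.01, 0.20 with detection on all 8 arrays, 0.24 among genes above the control-like probes, and 0.0014 to 0.17 without each culture. The number of genes detected was 14 on all 8 arrays, and 13 and 11 against the control-like probes on at least 4 and on all 8. Single genes turned sign: Eng to -0.041 with slide as a block and on slide 1 only, and Notch4 to -0.050 with the mean of its probes. Leaving out each culture gave ranges that crossed 0 for Esam (-0.0093 to 0.88), Cldn5 (-0.51 to 0.23), Sox17 (-0.41 to 0.11), Mmrn2 (-0.26 to 0.083), Lmo2 (-1.49 to 0.0059) and Notch4 (-0.18 to 0.25). The cause was not tested. Of the values of single genes, 396 kept their sign and stayed short of the threshold, and 12 turned. Signal over background limits the 9 dim genes, whose folds depend on the background taken. Folds of some genes clearly above background in all 8 cultures depended on it too. With control-like probes as negative controls, the fold change of Selp moved from 0.52 to 0.0070 and that of Cdh5 from 0.23 to 0.017. That of Emcn stayed at 0.75.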
